A study of Mus musculus with 2 samples.

Results

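CD8 T cells were taken from single-cell RNA data of mouse femoral marrow and of cells that clung to a bone implant, and they made up 393 of 15842 barcodes of usable quality. The cells were selected on their own transcripts, with no protein stain or sort. A member had at least 2 unique molecular identifiers (UMIs, each standing for 1 captured RNA molecule) of the CD3 genes Cd3d, Cd3e and Cd3g together and at least 1 of Cd8a or Cd8b1. It had 0 of Cd4, at most 3 of the B cell genes Cd79a and Cd79b, and under 4% of its UMIs in the neutrophil genes S100a8 and S100a9. Barcodes were usable with at least 200 detected genes and at most 15% of their UMIs in mitochondrial genes. The study compared 2 kinds of intramedullary nail in osteoporotic fracture mice, with 1 droplet library (10x Chromium 3' v3) from each. The Mg group carried magnesium nails and gave 251 members among 8319 usable barcodes. The Mg-TAGelMA group carried nails labelled Mg-TAGelMA and gave 142 members among 7523. GelMA usually stands for gelatin methacryloyl, which forms a hydrogel; what TA stands for is not given in the labels. Strain, sex, age, time after surgery, how osteoporosis was produced and how many mice each library pools are not given in the sources used here. Since each nail has 1 library, no test between nails is possible, and every ratio between libraries below compares those libraries with an interval that covers counting error only.

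CD8 T cells recognise peptides on MHC class I molecules through an αβ T cell receptor that works with the CD3 chains and the CD8 coreceptor. Naive cells recirculate through blood and lymphoid organs, while memory cells, many of which settle in bone marrow, carry IL-2 receptor beta and the chemokine transcript Ccl5 and can release granzymes and perforin on short notice. Memory cells in marrow are known to depend on IL-7 and IL-15, which stromal cells there supply.

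Genes outside the gate went with the label. Of the T cell receptor beta constant transcripts Trbc1 and Trbc2, both were missing in 1 of the 251 Mg members and in 2 of the 142 Mg-TAGelMA members. Because Trbc1 and Trbc2 are near-identical copies, reads can be split between them, so their separate levels are uncertain. Both CD8 chains were detected in 201 Mg members (80.1%) and in 87 Mg-TAGelMA members (61.3%). Cd8a was detected alone in 25 and 21 members, and Cd8b1 alone in 25 and 34. A chain that a cell lacks and a chain that was missed at this depth cannot be told apart in these counts. Markers of innate-like and γδ T cells, which the gate could also hold, were mostly low. Trdc, the receptor delta constant chain, stood at 25.3 CPM (counts scaled to 1000000 UMIs of the class) in the Mg members and at 14.4 in the Mg-TAGelMA members. Zbtb16, the regulator of innate-like T cells, stood at 0 and 3.43 CPM, and Sox13 at 0 in both. Of 13 listed genes of such cells, 9 stayed under 10 CPM in both libraries. All 13 summed to 113 and 413 CPM. The 1 that reached 50 CPM was Fcer1g, which was higher in the Mg-TAGelMA members and is given below. Across the libraries 21 barcode sequences occurred in both, 0 of them among members.

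Near the thresholds, membership turned on few UMIs. A CD3 sum of exactly 2 let in 6 Mg and 3 Mg-TAGelMA cells with medians of 19 and 15 UMIs of other T cell genes, whereas the 5 and 13 barcodes with a CD3 sum of 1 held a median of 1. The CD8 limit was softer. The 23 members in each library with 1 CD8 UMI had medians of 26 and 43 T cell UMIs, and the 175 and 131 CD3-positive barcodes with 0 CD8 and 0 Cd4 UMIs had 22 and 31. Whether the latter include CD8 T cells in which neither chain was captured was not tested. Cd4 kept out 7 and 2 cells that also had CD8 transcripts, the B cell limit kept out 16 and 4, and the neutrophil limit 6 and 12. For all members the medians were 30 T cell UMIs with the Mg nail and 39.5 with the Mg-TAGelMA nail.

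The libraries differed in ways that touch every value below. Members had a median of 6447 UMIs (1307 to 26219) with the Mg nail and 8520 (1504 to 83227) with the Mg-TAGelMA nail, and 1701678 and 1456398 UMIs in all. Per the file headers the Mg counts came from Cell Ranger 5.0.0 and the Mg-TAGelMA counts from Cell Ranger 7.0.1. Genes with up to 8 kb of annotated intron took 65.0% of the members' UMIs with the Mg nail and 50.7% with the Mg-TAGelMA nail, and Gm42418, whose model covers ribosomal RNA sequence, took 7.04% and 0.145%. Software version and nail cannot be told apart. Transcripts of 14 neutrophil genes summed to 3288 and 12639 CPM in members and to about the same in CD4 T cells (3348 and 12670 CPM), NK cells (3274 and 12447 CPM) and B cells (3575 and 14413 CPM). Haemoglobin and other erythroid genes summed to 11248 CPM in Mg members and 457 in Mg-TAGelMA members. Monocyte genes summed to 956 and 3020 CPM, B cell genes to 912 and 1921, dendritic cell genes to 163 and 446, and platelet genes to 1 and 9. Barcodes with clear amounts of such transcripts (at least 30 UMIs of 6 monocyte genes, 100 of 4 haemoglobin genes or 30 of 3 MHC class II genes) numbered 10 in the Mg members (3.98%) and 9 in the Mg-TAGelMA members (6.34%), and calls lost without them are named below.

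CD8 T cells took a smaller share of the Mg-TAGelMA library. They were 3.02% of usable barcodes with the Mg nail (exact Clopper-Pearson 95% interval 2.66 to 3.41) and 1.89% with the Mg-TAGelMA nail (1.59 to 2.22). The ratio of the shares was 0.626 (0.506 to 0.772). Other lymphocytes were also scarcer there. CD4 T cells went from 77 barcodes (0.926%) to 40 (0.532%), a ratio of 0.574, and NK cells from 82 (0.986%) to 40 (0.532%), a ratio of 0.539. B cells went from 35.3% to 18.2%, a ratio of 0.516. Among CD3-positive barcodes, CD8 T cells were 49.2% (251 of 510) and 45.1% (142 of 315), and that ratio of 0.916 had an interval of 0.740 to 1.13, which spans 1. Of the barcodes in the CD8 and CD4 gates together, 76.5% were CD8 with the Mg nail and 78.0% with the Mg-TAGelMA nail (ratio 1.02, 0.824 to 1.26). The lower share was measured against all barcodes, while both ratios taken within T cells had intervals that span 1. When every barcode was first reduced at random to 1000 UMIs, shallower barcodes were left out (7689 and 7340 remained). With the gate applied anew to the reduced counts, the ratio against all barcodes was 0.393 (0.249 to 0.605). Members with few CD3 or CD8 UMIs can drop out at this step. Cd8a and Cd8b1 took a smaller part of the members' UMIs in the Mg-TAGelMA library, as given below. What part this has in the ratio of 0.393 was not tested.

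**Figure D1:**
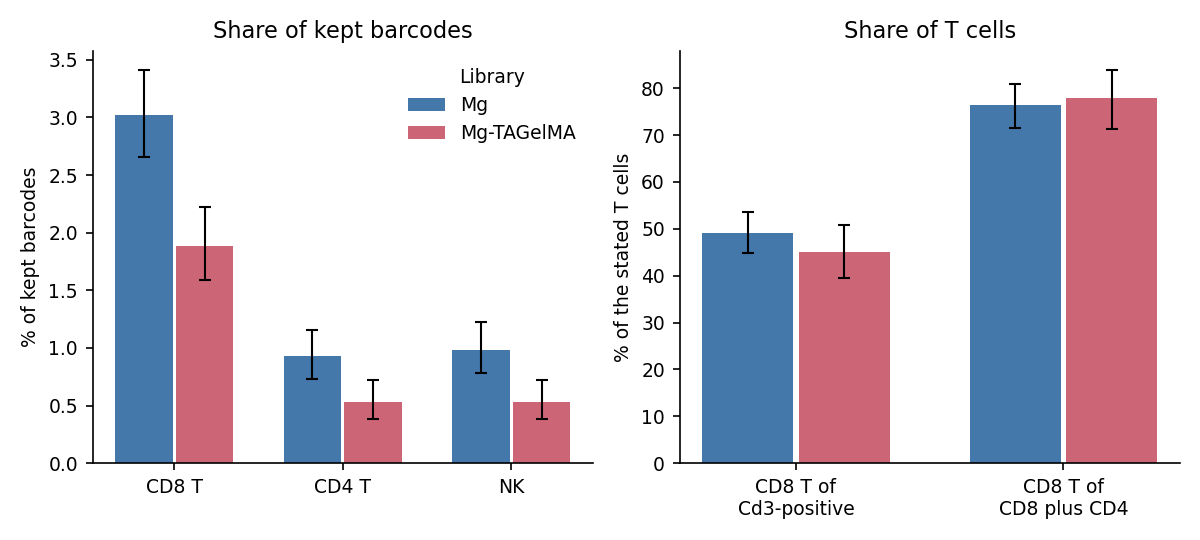
Left, percent of usable (kept) barcodes in the CD8 T, CD4 T and NK gates; right, CD8 T cells as a percent of CD3-positive barcodes and of CD8 plus CD4 T cells. Bars are the 2 libraries, with exact 95% intervals that cover counting error. The share of usable barcodes is 3.02% with the Mg nail and 1.89% with the Mg-TAGelMA nail, while the intervals overlap for both shares taken within T cells.

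Several helper and regulatory genes were lower in CD8 than in CD4 T cells. Across 9651 genes tested, 3 were higher (0.0311%) and 20 lower (0.207%) in CD8 T cells, with the 2 libraries as replicates and a library term in the fit (edgeR quasi-likelihood test, Benjamini-Hochberg adjusted p under 0.05, gate genes left out). The counts moved with the method, to 40 higher and 62 lower with DESeq2 and to 110 and 89 with the CD8 and CD4 classes fitted alone. Of 11 genes of a CD4 helper and regulatory list, 6 were lower, with a median log2 difference of -2.46 against 0.04 over all genes. Maf, a transcription factor of helper and regulatory cells (chromosome 8), stood at 1.76 and 11 CPM in CD8 T cells of the Mg and Mg-TAGelMA libraries and at 113 and 305 CPM in CD4 T cells. Its log2 difference was -5.06 ± 0.37 (SE, n = 2 libraries; edgeR adjusted p = 9.2e-05). Foxp3, the master regulator of regulatory T cells, had 1 UMI in the CD8 T cells of each library against 33 and 27 in the far fewer CD4 T cells (log2 -6.95 ± 0.69, edgeR adjusted p = 0.00104). Il2ra, the IL-2 receptor alpha chain, was at 3.53 and 2.06 CPM against 49.7 and 76.4 (edgeR adjusted p = 0.0140). For Maf, Foxp3 and Il2ra every CD8 value lay below every CD4 value. The costimulatory receptors Tnfrsf4 (OX40), Tnfrsf9 (4-1BB) and Icos were lower too (log2 -5.46, -2.88 and -1.83), as was the checkpoint receptor Ctla4 (log2 -2.66, edgeR adjusted p = 0.0196). Gata3, which directs type 2 helper cells, was lower at 34.1 and 26.1 CPM against 152 and 127 (log2 -2.10, edgeR adjusted p = 0.00778). Ly6a, which encodes Sca-1, was lower at 16.5 and 55.6 CPM against 177 and 337 (log2 -2.83, edgeR adjusted p = 0.00104). Rgs1 and Itgb1, which act in cell retention and adhesion, were also lower (log2 -1.88 and -1.89). Because the regulatory fraction of the CD4 gate was not separated, these differences hold for CD4 T cells as gated.

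Few genes were higher in CD8 than in CD4 T cells. Dapl1, a transcript known from resting CD8 T cells (chromosome 2, 59484653 to 59505020 in GRCm38), stood at 317 and 104 CPM against 69.0 and 12.7 (log2 2.58 ± 0.38, edgeR adjusted p = 0.0240). Bcl2, the anti-apoptotic factor that IL-7 and IL-15 sustain, stood at 599 and 921 CPM against 248 and 309 (log2 1.53 ± 0.22, edgeR adjusted p = 0.0140). Within each library CD8 T cells had more of both genes. The gene Slc25a21 was called as well (log2 4.47 ± 0.66, edgeR adjusted p = 0.0181), but 97.2% of its 317 UMIs in Mg-TAGelMA members came from 1 cell. With the cell holding the most UMIs left out for each gene and class, its adjusted p in the same edgeR fit was 0.777, while Dapl1 and Bcl2 were still called (adjusted p = 0.0138 and 0.00852). In that fit Izumo1r, Tnfrsf9, Lamc1 and March3 lost their call as well.

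Cytotoxic genes were not called between CD8 and CD4 T cells, and of 15 memory genes 1 was higher (Bcl2) and 1 lower (Ly6a). Of 17 cytotoxic effector genes tested 0 passed in edgeR (median log2 1.32), and of 12 receptors of the NK type 0 passed (median 1.52). In this test 487 genes of all had an unadjusted p under 0.05 and were higher in CD8 T cells, and DESeq2 called 40 higher. Ly6c2, a surface protein of memory CD8 T cells, stood at 464 and 742 CPM against 141 and 150 (edgeR adjusted p = 0.0515). Klrd1, which encodes CD94, had a log2 difference of 2.88 (adjusted p = 0.0869), and Eomes, a T-box factor of memory cells, one of 2.06 (adjusted p = 0.127), both by edgeR. Ccl5 was at 945 and 2389 CPM against 764 and 430 (edgeR adjusted p = 0.234). Runx3, the factor that silences Cd4 in the CD8 lineage, differed by log2 0.80 (edgeR adjusted p = 0.271). Ccr9, a gut and thymus homing receptor, had 139 and 52 UMIs in CD8 T cells and 0 and 0 in CD4 T cells (edgeR adjusted p = 0.141). A p that misses the threshold with 2 libraries does not show that these levels are equal.

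**Figure D2:**
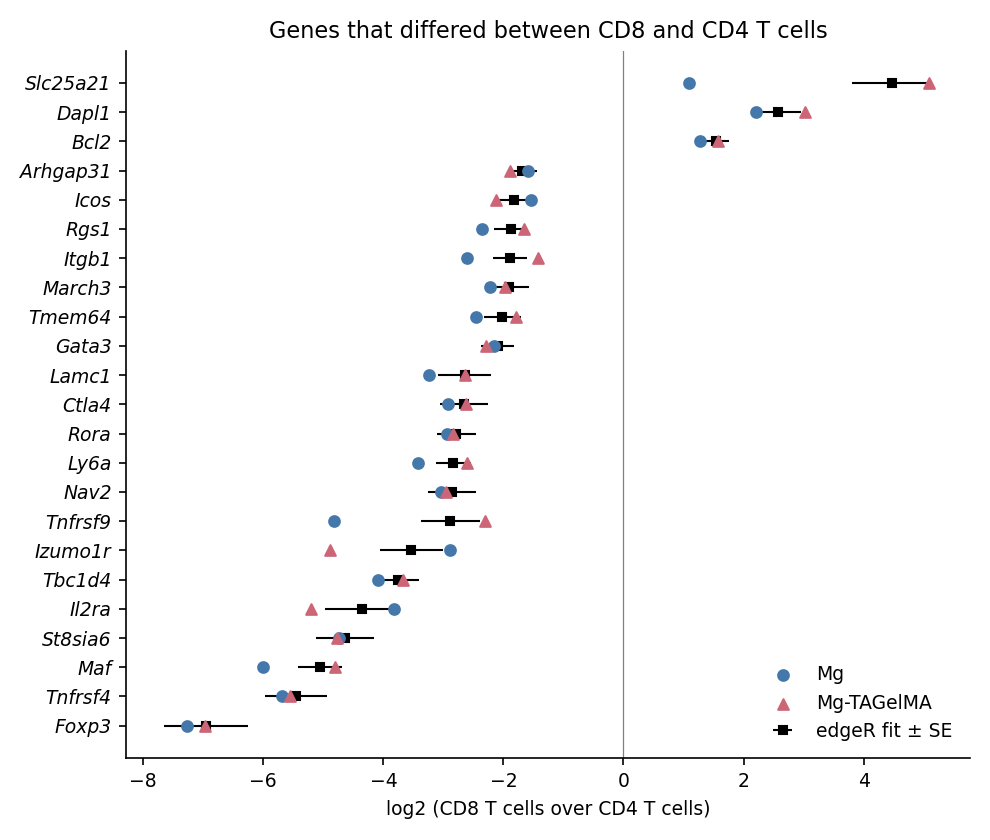
Log2 difference, CD8 over CD4 T cells, of the 3 genes higher and 20 lower in CD8 T cells. Black squares with bars are the edgeR estimate ± SE, circles and triangles the Mg and Mg-TAGelMA library's own value, and both libraries lie on the same side of 0 for every gene; the Mg-TAGelMA value of Slc25a21 rests on 1 cell.

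Against NK cells, which kill through the same granule proteins but carry no T cell receptor, 209 genes were higher (2.17%) and 231 lower (2.39%) in CD8 T cells by the same edgeR test. Of 20 T cell identity genes outside the gate 9 were higher, with a median log2 difference of 1.15 against 0.02 over all genes. Bcl11b, a transcription factor that holds T cell identity, led them (log2 6.50, edgeR adjusted p = 3.82e-05), followed by Trac, the receptor alpha constant chain (log2 4.87, edgeR adjusted p = 0.000181). Of 15 naive and recirculating genes 8 were higher, with a median of 1.55. Ccr7, which guides naive cells into lymph nodes, stood at 123 and 179 CPM against 2.11 and 2.60 (log2 6.21 ± 0.59, edgeR adjusted p = 0.000227). Il7r, the IL-7 receptor, stood at 491 and 264 CPM against 50.7 and 49.4 (log2 3.08, edgeR adjusted p = 0.00023). The naive cell transcription factors Lef1 (log2 2.15) and Tcf7 (log2 1.53) and the egress receptor S1pr1 (log2 2.43) were higher with edgeR adjusted p of 0.00283, 0.0102 and 0.00128. Dapl1 had 691 UMIs in CD8 T cells and 0 in NK cells, so its pooled level was at least 62.6-fold higher when 3 counts are set over the NK group. Cxcr6, a receptor of resident lymphocytes, had 148 UMIs against 0, at least 13.4-fold higher by the same floor.

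Effector genes went the other way. Of the 17 cytotoxic genes 6 were lower in CD8 T than in NK cells (median log2 -1.56), and of the 12 NK-type receptors 10 were lower (median -3.01). Prf1, which encodes perforin, stood at 50.5 and 33.0 CPM against 572 and 211 (log2 -2.93, edgeR adjusted p = 0.000728). Gzma, a granule protease, had 3 and 108 UMIs against 1794 and 1054 in NK cells (log2 -6.74, edgeR adjusted p = 0.00117). Gzmb was lower as well (log2 -3.03, edgeR adjusted p = 0.0436). Of 15 memory genes 6 were lower and 2, Ly6a and Slamf6, higher. Il2rb, the chain that IL-2 and IL-15 receptors share, stood at 214 and 215 CPM against 1174 and 803 (log2 -2.0, edgeR adjusted p = 0.00135), and Eomes was lower as well (log2 -2.36, edgeR adjusted p = 0.00109). Ccl5 was lower (log2 -1.78 ± 0.42, edgeR adjusted p = 0.0365), at 945 and 2389 CPM against 7137 and 5128. Nkg7, a granule membrane protein, did not pass (log2 -1.49, edgeR adjusted p = 0.129). All 7 NK cell list genes outside the gate were lower. Among them are Klra4 and Klra8 of the Klra family, whose near-identical copies can share reads. Levels of single members of that family are therefore uncertain.

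Within the CD8 T cells Ccl5 split the population in both libraries. In the Mg library 186 members had 0 Ccl5 UMIs, 12 had 1, 6 had 2 to 4, 7 had 5 to 9 and 40 had 10 or more. In the Mg-TAGelMA library 61 had 0, 19 had 1, 7 had 2 to 4, 2 had 5 to 9 and 53 had 10 or more. Few cells lay between, and the cells above a limit of 2 UMIs form a range of levels rather than a defined type. Members with at least 2 Ccl5 UMIs were 21.1% of the Mg library's (53 of 251, interval 16.2 to 26.7) and 43.7% of the Mg-TAGelMA library's (62 of 142, 35.4 to 52.2). The ratio was 2.07 (1.41 to 3.04). At equal depth of 1000 UMIs per cell, with members gated before the reduction, the shares were 13.9% and 34.5%, a ratio of 2.47 (1.57 to 3.93). B cells, which should lack the transcript, reached the limit in 0.61% and 4.01% of cells, with median depths of 3604 and 5173.5 UMIs. For any Ccl5 UMI the shares were 25.9% and 57.0% in CD8 T cells and 7.01% and 19.2% in B cells. At 10 UMIs or more the CD8 shares were 15.9% and 37.3% (ratio 2.34, 1.52 to 3.62). In CD4 T cells the limit of 2 UMIs was reached by 19.5% (15 of 77) and 15% (6 of 40), and in NK cells by 91.5% and 92.5%. Without barcodes that held other cells' transcripts, the CD8 shares were 20.3% and 43.6%.

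**Figure D3:**
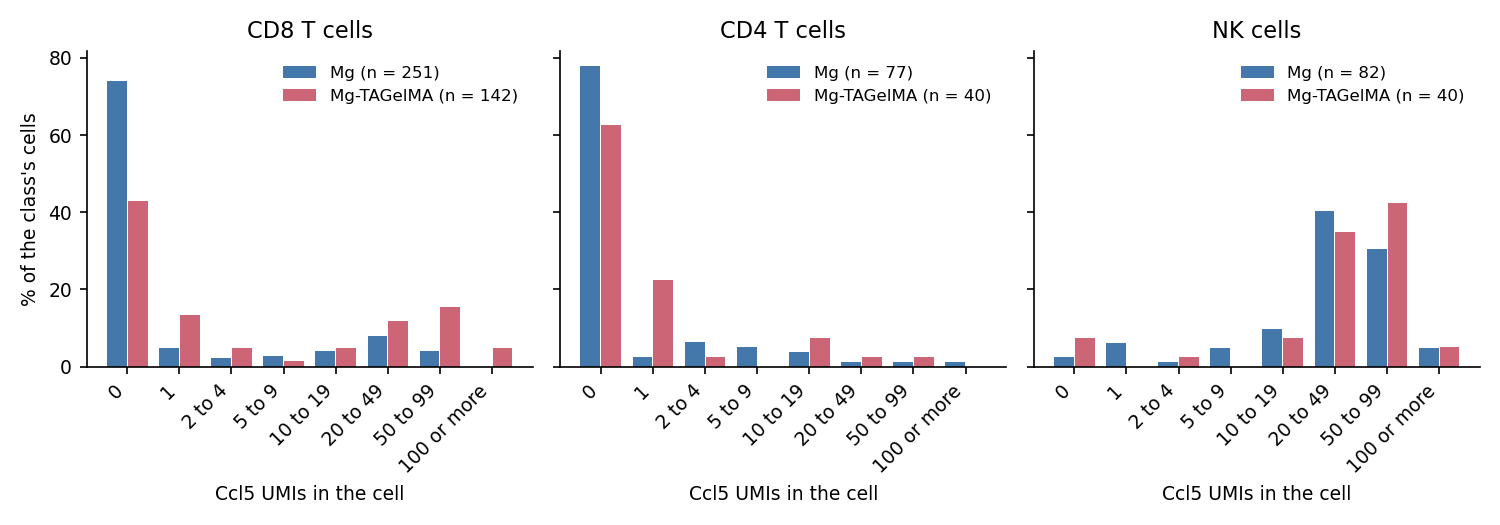
Percent of the cells of each class, CD8 T, CD4 T and NK, in each range of Ccl5 UMIs per cell, for the Mg and Mg-TAGelMA libraries. Most CD8 T cells have either 0 UMIs or at least 10, and 37.3% of Mg-TAGelMA members against 15.9% of Mg members lie at 10 or more.

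Cells with Ccl5 held more transcripts of some memory cell genes and NK-type receptors, and cells without it more of some naive cell genes. Since the cells were grouped by a measured gene, the levels that follow are a description without a test. Members with at least 2 Ccl5 UMIs were deeper than those with 0, at medians of 7538 against 6135 UMIs with the Mg nail and 9631 against 7509 with the Mg-TAGelMA nail. Levels are in CPM of each subset's total. Il2rb stood at 76.1 CPM without Ccl5 and 630 with it in the Mg library, and at 98.2 and 339 in the Mg-TAGelMA library. Eomes went from 26.8 to 122 CPM and from 24.5 to 74.7 CPM. Cxcr3, a receptor that draws effector and memory cells to inflamed sites, went from 19 to 94.0 CPM and from 1.89 to 45.7 CPM. These genes lay on the same side in both libraries, and so did the surface protein Ly6c2 (232 to 1183 CPM and 391 to 1034). Xcl1, a chemokine that attracts cross-presenting dendritic cells, went from 3.46 to 113 CPM and from 22.7 to 111. Klrk1, which encodes the activating receptor NKG2D, had 3 and 60 UMIs without and with Ccl5 with the Mg nail and 2 and 67 with the Mg-TAGelMA nail. Klrc1, which encodes the inhibitory receptor NKG2A, had 0 and 36 UMIs and 3 and 89. Its fold was at least 32.6 in the Mg library, with 3 counts set for 0, and 21.7 (3 UMIs in the lower subset) in the Mg-TAGelMA library. Of the 57 listed genes that had at least 20 UMIs in the subset with Ccl5 in each library, 21 were at least 2-fold higher with Ccl5 in both (36.8%), as were 65 of all 2872 genes with that count (2.26%). Genes entered both counts by their UMIs in the subset with Ccl5 alone. The lists were chosen with earlier results of these data known, so these shares are a description and not a test. Among the 21 were also Cd160, Ctla2a, Gzmm, Id2, Il18r1, Il18rap, Itgb1, Klra7, Klrc2, Klre1, Mki67, Nkg7 and Rgs1. The memory list genes Cd44, Bcl2, Cxcr4, Ly6a, Slamf6, Fas and Il10ra were not among them. The subsets were not counted anew without each gene's top cell. For Mki67, 1 of the 5 Mg members with at least 10 UMIs of mitotic genes had at least 2 Ccl5 UMIs.

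Some homing and quiescence genes were lower in the cells with Ccl5. The genes named here were picked after their values were seen. How many genes of the naive list, or of all genes, were lower with Ccl5 was not counted. Ccr9 was at 110 CPM without Ccl5 and 2.35 with it in the Mg library, 46.7-fold lower, and at 81.2 and 6.92 in the Mg-TAGelMA library, 11.7-fold lower. Ccr7 was 3.90-fold and 4.85-fold lower (156 to 40.0 CPM and 315 to 65.0). Lef1 was 2.66-fold and 2.30-fold lower, and Tcf7 1.5-fold and 1.67-fold lower. Igfbp4, a binding protein known from naive T cells, was 6.44-fold and 3.90-fold lower. Dapl1 was 1.71-fold lower in the Mg library (361 to 212 CPM) and 5.93-fold lower in the Mg-TAGelMA library (164 to 27.7). Itgae, the integrin chain CD103, was among the lower genes, at 6.44-fold and 5.91-fold. Runx3 stood at ratios of 0.920 and 0.890, with Ccl5 over without it. Ly6a lay on different sides, at a ratio of 0.494 with the Mg nail and 3.78 with the Mg-TAGelMA nail.

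**Figure D4:**
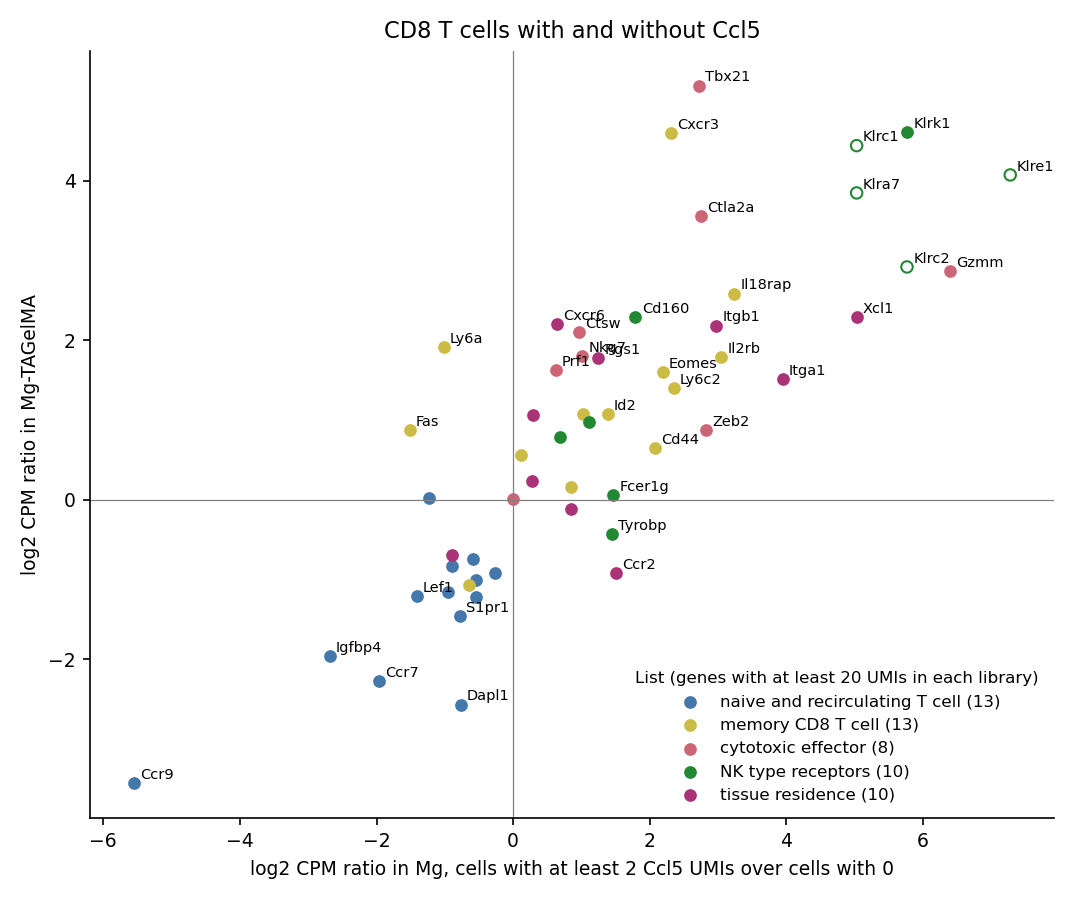
Log2 ratio of the CPM in CD8 T cells with at least 2 Ccl5 UMIs to that in cells with 0, for 54 listed genes with at least 20 UMIs, with the Mg library on the horizontal and the Mg-TAGelMA library on the vertical axis. Colours are gene lists, and open circles are lower bounds in at least 1 library. Il2rb, Eomes, Cxcr3 and Klrk1 lie to the upper right, Ccr9, Ccr7 and Lef1 to the lower left.

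Promoters are shown for Nkg7, Xcl1 and Klrc1, which were higher with Ccl5 in both libraries, for Dapl1, which was lower, and for the granzyme gene Gzmb, so that their sequence can be read beside the levels. Each run is the 250 bases before the annotated start (RefSeq, GRCm38.p6), written 5' to 3' on the gene's strand, with capitals for every match to TGTGGT (RUNX core), TGAGTCA (AP-1) or GGTGTGA (T-box) on either strand, and positions counted back from the start. The Gzmb window is chr14:56262335-56262584 on the minus strand, with RUNX letters at -93 to -88 and -34 to -29 and AP-1 letters at -58 to -52. The Nkg7 window is chr7:43436888-43437137 on the plus strand (RUNX -83 to -78, T-box -13 to -7), the Xcl1 window chr1:164935523-164935772 on the minus strand (RUNX -227 to -222, T-box -188 to -182) and the Klrc1 window chr6:129678974-129679223 on the minus strand (RUNX -87 to -82). The Dapl1 window is chr2:59484403-59484652 on the plus strand and holds 0 of the 3 motifs.
Gzmb: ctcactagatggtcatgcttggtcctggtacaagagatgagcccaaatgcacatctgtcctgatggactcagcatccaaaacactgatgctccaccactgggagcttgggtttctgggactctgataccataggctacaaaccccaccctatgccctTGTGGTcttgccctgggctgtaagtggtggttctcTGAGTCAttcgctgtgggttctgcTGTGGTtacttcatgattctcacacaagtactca
Nkg7: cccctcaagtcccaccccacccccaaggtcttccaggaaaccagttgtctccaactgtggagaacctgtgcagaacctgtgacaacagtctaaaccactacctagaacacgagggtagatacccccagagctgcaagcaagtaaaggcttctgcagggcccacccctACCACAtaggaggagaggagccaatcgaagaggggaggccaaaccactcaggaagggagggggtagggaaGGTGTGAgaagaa
Xcl1: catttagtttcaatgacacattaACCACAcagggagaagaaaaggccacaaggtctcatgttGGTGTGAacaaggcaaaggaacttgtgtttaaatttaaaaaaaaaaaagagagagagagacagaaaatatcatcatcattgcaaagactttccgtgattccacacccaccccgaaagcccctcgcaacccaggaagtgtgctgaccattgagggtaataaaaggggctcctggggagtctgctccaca
Klrc1: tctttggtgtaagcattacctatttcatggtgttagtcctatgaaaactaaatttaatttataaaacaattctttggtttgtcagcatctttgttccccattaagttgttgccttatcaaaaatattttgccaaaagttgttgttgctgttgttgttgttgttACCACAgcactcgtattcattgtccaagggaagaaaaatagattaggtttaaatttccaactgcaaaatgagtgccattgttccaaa
Dapl1: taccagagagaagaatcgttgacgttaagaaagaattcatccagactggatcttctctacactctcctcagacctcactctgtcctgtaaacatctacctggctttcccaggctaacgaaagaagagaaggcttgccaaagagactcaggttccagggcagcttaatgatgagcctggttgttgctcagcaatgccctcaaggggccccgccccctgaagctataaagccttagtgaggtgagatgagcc
Of the 21 genes higher with Ccl5 in both libraries, 18 were in the promoter table, and 10 of these windows (55.6%) held the RUNX letters: Cd160, Cxcr3, Gzmm, Klrc1, Klrc2, Klre1, Klrk1, Ly6c2, Nkg7 and Xcl1. Among all 27025 genes of the table the share was 14.2%, and among 48 other listed genes it was 20.8% (10 genes). Klrc1, Klrc2, Klre1 and Klrk1 are relatives in 1 gene cluster and are not independent of each other. The T-box letters were in 2 of the 18 windows (11.1%, against 3.31% of all) and the AP-1 letters in 1 (5.56%, against 4.43%). The 21 genes were chosen by their level with Ccl5 from lists made with earlier results known, so these shares are a description and not a test. A match is a string of letters and not evidence of a factor bound there.

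Transcripts of Gzma, Gzmb and Gzmk lay mostly in the Mg-TAGelMA library, while the granzyme Gzmm stood at 18.8 and 17.2 CPM. A UMI of Gzma, Gzmb or Gzmk was found in 8 of 251 Mg members (3.19%) and 36 of 142 Mg-TAGelMA members (25.4%), a ratio of 7.95 (3.64 to 19.8). In B cells the shares were 1.36% and 3.43%, a ratio of 2.52 (1.62 to 3.94). The ratio was 0.968 in NK cells and 2.57 (0.434 to 17.5) in CD4 T cells, with 3 and 4 such CD4 T cells. At 1000 UMIs per cell the members' shares were 0.797% and 9.15%, with 2 and 13 cells. With at least 2 such UMIs there was 1 Mg cell (0.398%) and there were 19 Mg-TAGelMA cells (13.4%). Of B cells, 0.10% and 0.29% reached 2. Gzmb alone was seen in 2 Mg cells (0.797%) and in 28 Mg-TAGelMA cells (19.7%), against 0.0681% and 1.38% of B cells. Its sums were 2 and 122 UMIs, a fold of 71.3 (19.3 to 595). Most of the 122 lay in 7 of the 142 members, the cells with 10 or more granzyme UMIs described below. Without the cell with most UMIs in each library the fold was 113, a value that rests on 1 Mg UMI. Gzma had 3 and 108 UMIs (42.1-fold, 14.0 to 207), of which 54.6% in the Mg-TAGelMA library came from 1 cell, and without the top cells it stayed under 50 CPM. Of cells with 10 or more granzyme UMIs the Mg library held 0 of 251, which allows a share of up to 1.46%, and the Mg-TAGelMA library 7 of 142 (4.93%, 2.0 to 9.89); at 1000 UMIs per cell it was 0 of 251 and 0 of 142.

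Those 7 cells were picked for their granzyme UMIs, so their granzyme values are a description. Each held Ccl5, at 36 to 278 UMIs with a median of 94, and Gzmb, at 1 to 26 with a median of 9. Nkg7 was present in all 7 at 4 to 62 UMIs. Gzma was found in 4 of them (highest 59), Gzmk in 5 (highest 11) and perforin in 5 (highest 7). Ifng, the gene of interferon gamma, was found in 6 (highest 9), and Rgs16, a regulator of G protein signalling known from activated T cells, in 5 (highest 23). At least 10 UMIs of mitotic genes were present in 3 of them. Depth was 3302 to 19332 UMIs with a median of 10893, and none held other cells' transcripts above the limits given earlier. Prf1 over all members was no higher in the Mg-TAGelMA library, at 50.5 and 33.0 CPM, and Nkg7 was at 447 and 446 CPM. Ifng had 5 and 53 UMIs, a fold of 12.4 (4.99 to 39.7), and reached 36.4 CPM at most. A large part of the 53 lay in the 7 cells.

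Across all genes of the members the Mg-TAGelMA library had more genes above than below the Mg library. A gene was called past the size rule when its exact 95% interval lay wholly beyond 2-fold and its level reached 50 CPM in the higher library. Of 3791 genes with that level 752 were higher (19.8%) and 63 lower (1.66%) in Mg-TAGelMA members, so 92.3% of the calls were higher, against 83.2% with edgeR's TMM scaling and 82.2% with DESeq2 size factors. Other classes showed the same lean, with 13.4% higher and 0.779% lower in CD4 T cells, 13% and 1.61% in NK cells, and 19.8% and 2.62% in B cells. The lean went with intron length. The median log2 ratio was -0.11 for genes with up to 8 kb of intron, 0.16 for 8 to 64 kb and 1.3 above 64 kb. Among 1409 genes with up to 8 kb of intron, scaled to their own total, 124 were higher (8.80%) and 14 lower (0.994%). Intron length is given beside many genes below, and what part the counting software has in any ratio was not tested.

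T cell identity genes as a list were not raised. Of 20 tested 4 were higher and 1 lower, with a median log2 ratio of -0.41 against 0.19 over all genes. Here and below, the counts of a list stand beside 19.8% of all genes called higher and 1.66% called lower. Each median of a list between libraries is over its genes with at least 10 CPM in either library, here all 20, as is that of all genes. Thy1, the surface protein CD90 (chromosome 9, 44043384 to 44048579; 2.20 kb of intron), stood at 504 CPM in Mg members and 182 in Mg-TAGelMA members, 2.77-fold lower (2.41 to 3.19), and 2.16-fold lower (1.88 to 2.49) on the short-intron scale, which is not past the rule. The coreceptor genes used for the gate are given as levels: Cd8a was at 390 and 171 CPM and Cd8b1 at 578 and 342 CPM. Other short or moderate T cell genes were lower without passing the rule, as Trac (438 and 292 CPM), Trbc2 (1027 and 832), the tetraspan gene Ms4a4b (1068 and 650), the kinase Lck (303 and 199) and the costimulatory receptor Cd27 (214 and 105). The 4 higher identity genes included the adaptor Skap1 (248 and 1325 CPM; 287 kb). Skap1 was 5.34-fold higher in CD8 T cells, 6.98-fold in CD4 T cells and 7.73-fold in B cells.

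Naive and recirculating genes gave 4 higher and 1 lower of 14 tested, with a median log2 ratio of -0.09 over 15 genes. The 1 lower gene was Dapl1, at 317 and 104 CPM, 3.06-fold lower (2.55 to 3.69; 19.7 kb). Receptors of this list lay on both sides without passing the rule: Il7r at 491 and 264 CPM, Ccr7 at 123 and 179 and S1pr1 at 220 and 207. Ccr9 was at 81.7 and 35.7 CPM, and 34.6% of its UMIs in the Mg-TAGelMA library came from 1 cell. Transcription factors with long introns were higher, as Bach2, a repressor of effector genes (114 and 902 CPM, 7.91-fold; 337 kb), and Foxp1, which keeps naive cells quiescent (433 and 1550 CPM, 3.58-fold; 584 kb). Tcf7 was at 415 and 254 CPM and Lef1 at 455 and 789, neither past the rule.

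Of 12 memory genes tested 3 were higher and 0 lower in Mg-TAGelMA members (median log2 0.68 over 15 genes), beside the 19.8% of all genes called higher. Of 8 cytotoxic genes 4 were higher and 0 lower (median 1.75 over 16 genes). Cd44, Ly6a, Gzma, Gzmb and Zeb2 were tested because they reached 50 CPM in the Mg-TAGelMA members, and they were under it in the Mg members. Among tested genes with up to 8 kb of intron on their own scale, 3 of 7 memory genes and 4 of 8 cytotoxic genes were higher, and 0 lower. Of all 1409 genes tested on that scale 8.80% were higher and 0.994% lower. Ccl5 (chromosome 11, 83525778 to 83530518; 3.78 kb) stood at 945 and 2389 CPM, 2.53-fold higher (2.38 to 2.68), and 3.24-fold on the short-intron scale. Without barcodes that held other cells' transcripts its fold was 3.12 (2.94 to 3.33). In CD4 T cells the Ccl5 ratio was 0.562 and in NK cells 0.719, and the difference of these ratios from that in CD8 T cells was not tested. Srgn, the proteoglycan core of cytotoxic granules, was at 264 and 849 CPM (3.22-fold; 31.4 kb) and Cd44, the hyaluronan receptor of memory cells, at 48.2 and 192 CPM (3.99-fold; 83.7 kb). Fasl, the death ligand, was at 9.40 and 39.1 CPM and passed only on the short-intron scale. It reached the minimum level there in the Mg-TAGelMA members alone, so it could be called in that direction only. Il2rb (214 and 215 CPM), Eomes (49.95 and 52.2) and Ly6c2 (464 and 742) were not past the rule.

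Of 15 genes of the NK-type receptor list 4 reached 50 CPM, Klrc1 and Tyrobp in the Mg-TAGelMA members alone, and 3 were higher. Below that level Klra1 (log2 -2.02) and Klrc2 (log2 -0.55) had ratios under 1. Klrc1 was at 21.2 and 63.9 CPM (3.02-fold, 2.03 to 4.57; 11 kb) in CD8 T cells, a call that was lost with TMM or DESeq2 scaling (2.61-fold and 2.58-fold), and its ratio in NK cells was 0.355. The signalling adaptor Tyrobp was at 40.0 and 349 CPM (8.75-fold, 6.78 to 11.4; 3.16 kb) and Fcer1g at 70.5 and 362 (5.13-fold, 4.20 to 6.31). Both adaptors are abundant in myeloid cells, whose listed transcripts were also higher in Mg-TAGelMA members. Without the barcodes holding other cells' transcripts the folds were 5.24 and 3.37, and in B cells they were 3.71 and 3.81. Their source was not tested. Klrd1 was level, at 180 and 176 CPM. Of the 11 genes of the inhibitory receptor list 4 were tested, all with over 8 kb of intron, and 4 were higher, with a median log2 ratio of 2.95 over 10 genes. Of these 4, Ctla4, Nr4a2 and Nr4a3 reached 50 CPM in the Mg-TAGelMA members alone. Tox, a factor of chronically stimulated cells, was at 69.9 and 450 CPM (298 kb), Nr4a2 at 21.7 and 237 CPM (13.1 kb) and Ctla4 at 12.3 and 71.4 CPM (26.5 kb). Nr4a2 was 20.5-fold and 19.9-fold higher in NK and B cells, against 10.9-fold in CD8 T cells. The checkpoint receptors Pdcd1 (0 and 27 UMIs), Lag3 (3 and 17) and Tigit (1 and 24) did not reach 50 CPM.

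Of 18 immediate early and stress genes 5 were higher and 0 lower (median log2 0.74 over 18 genes), and of the 16 with short introns 4 were higher on the short-intron scale. Over all genes 19.8% were called higher and 1.66% lower, and 8.80% of short-intron genes were called higher on their own scale. Nfkbia, the NF-kB inhibitor that NF-kB itself induces, was at 129 and 389 CPM (3.03-fold), the phosphatase Dusp2 at 125 and 319 (2.55-fold, not past the rule at 2.21-fold with TMM) and the AP-1 subunit Fos at 98.1 and 257 (2.62-fold). For Fos 41.3% of the Mg-TAGelMA UMIs came from 1 cell, and its fold was 1.64 without the top cells and 1.3 without other cells' transcripts, neither past the rule. Among 13 survival and cytokine receptor genes 5 were higher and 0 lower (median log2 0.59 over 16 genes), and 2 of 5 on the short-intron scale. Socs3, a feedback inhibitor of cytokine signals, was at 31.1 and 121 CPM (3.88-fold), the kinase Pim1 at 108 and 395 (3.66-fold) and Stat5b at 79.9 and 450 (5.64-fold; 64.5 kb). Of 9 tissue residence genes 2 were higher, Rgs1 and Ccr2, and 0 lower (median log2 0.97 over 12 genes). Rgs1, Ccr2 and the Socs3 gene above reached 50 CPM in the Mg-TAGelMA members alone, so they could be called in that direction only. Without barcodes that held other cells' transcripts the ratio of Ccr2 was 0.702. Rgs1 was at 44.1 and 136 CPM (3.08-fold, 2.35 to 4.08). Cd69, the residence and activation marker, was at 109 and 225 CPM (2.06-fold) and passed only on the short-intron scale (2.64-fold). Of 17 T cell receptor signalling genes 4 were higher and 0 lower (median -0.28 over 18 genes), a share near the 19.8% of all genes. Among the 4 was the ubiquitin ligase Cblb (92.3 and 899 CPM, 166 kb of intron).

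Interferon genes gave 2 higher and 1 lower of 10 (median log2 0.24 over 19 genes), beside 19.8% and 1.66% of all genes. Ifi27l2a was at 121 and 456 CPM (3.77-fold, 3.22 to 4.43), the transcription factor Irf1 at 68.8 and 236 (3.43-fold) and the GTPase Gbp7 at 82.3 and 28.2 (2.92-fold lower, a call lost when doublets or other cells' transcripts were left out). The list thus held calls in both directions. MHC class I genes were mostly below 1 in ratio, with B2m at 1668 and 939 CPM, H2-K1 at 1903 and 1227 and H2-D1 at 1001 and 809, none past the rule. The median of the 14 tested was -0.42. For the 11 with short introns it was -0.06 on the short-intron scale, against 0.20 over all short-intron genes. The 1 gene called was Nlrc5, the transactivator of class I genes (58.8 and 153 CPM, 84.4 kb of intron). It was 2.61-fold higher, and 2.26-fold with TMM, which is not past the rule. Proliferation genes gave 0 higher and 1 lower of 10 (median -0.15 over 16 genes), the lower gene being the kinetochore gene Cenpf (63.5 and 19.2 CPM, 3.30-fold lower), a call that was lost without its top cells or without other cells' transcripts. Mki67, the proliferation marker, was at 193 and 107 CPM. At least 10 UMIs of mitotic genes were present in 5 Mg and 8 Mg-TAGelMA members, of which 1 and 6 had at least 2 Ccl5 UMIs.

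**Figure D5:**
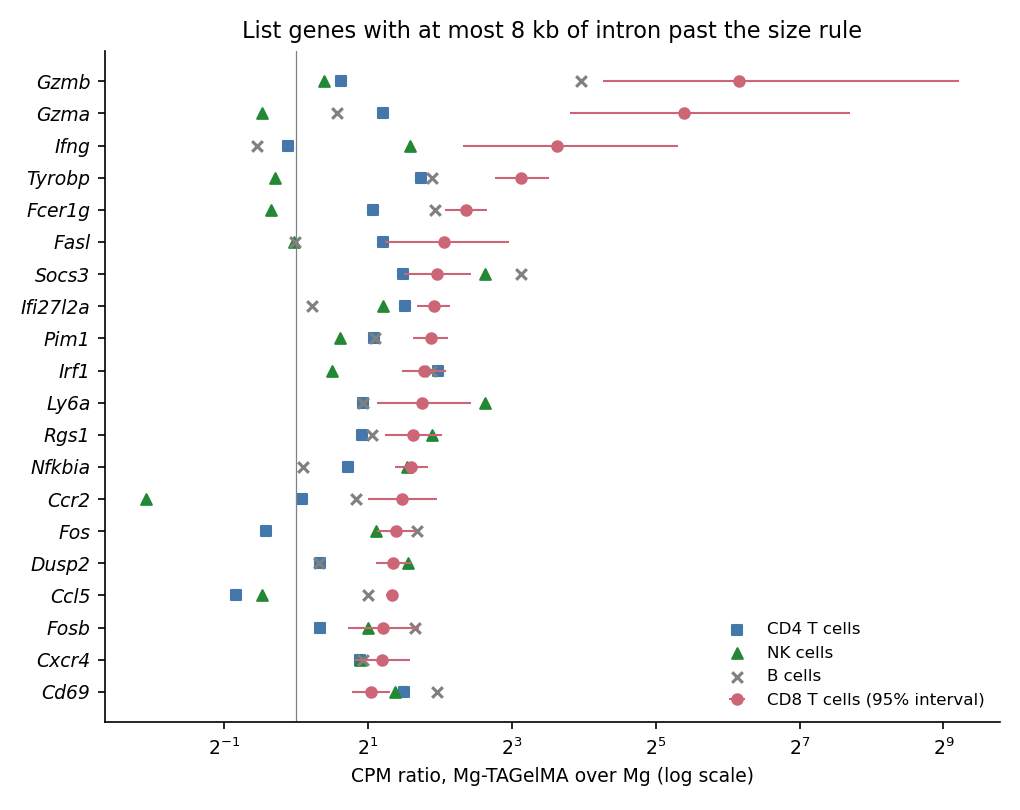
CPM ratio, Mg-TAGelMA over Mg (log axis), for 20 genes of the T cell marker, state and pathway lists with up to 8 kb of intron that passed the size rule on the short-intron scale, in CD8 T cells (circles with exact 95% intervals) and, without intervals, in CD4 T, NK and B cells. All 20 are higher in the CD8 T cells of the Mg-TAGelMA library, as were 89.9% of all genes called on that scale. Ccr2 was at 0.702 without barcodes that held other cells' transcripts. Lists of other cell types, which hold short-intron erythroid genes that were lower, are left out; Ccl5, Gzma, Tyrobp, Fcer1g and Ccr2 lie below a ratio of 1 in NK cells.

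The highest ratios were those of long genes. Kcnq5, Alcam, Fhit, Gab2, Il12rb2, Immp2l, Lrmda, March3 and Oprm1 had 1 to 5 UMIs in Mg members and 91 to 329 in Mg-TAGelMA members, have from 81.1 kb (Il12rb2) to 1610 kb (Fhit) of intron, and were higher in CD4 T, NK and B cells too. Among genes with up to 8 kb of intron, Rgs16 had 1 and 93 UMIs (109-fold, 19 to 4338), and without its top cells it was under 50 CPM. Most of the 93 lay in the 7 cells with 10 or more granzyme UMIs. Mt1, a metallothionein that binds zinc and copper, was at 4.70 and 198 CPM (42.2-fold, and 34.4-fold without other cells' transcripts). S100a4, a calcium-binding protein of motile and memory cells, was at 26.4 and 382 CPM (14.4-fold and 11.1-fold), and the antiviral membrane protein Ifitm3 at 34.7 and 433 (12.5-fold and 6.86-fold). S100a4 and Ifitm3 are also abundant in myeloid cells, so their levels stand beside the monocyte sums given earlier. Cd68, Wfdc17, Mt2 and Ccl2, also among the highest ratios of short-intron genes, were not past the rule without the barcodes that held other cells' transcripts. In the other direction Lars2, a mitochondrial tRNA ligase, was at 2012 and 79.6 CPM, 25.3-fold lower, and its ratio was as low in the other classes. Trim56, an antiviral ubiquitin ligase, was at 103 and 19.9 CPM (5.16-fold lower). For Fabp4, with 110 and 1 UMIs, 94.5% of the Mg UMIs came from 1 cell. Slc4a1, Hemgn and Slc25a37, which are genes of red cell precursors, were among the lowest, beside the erythroid sums given earlier, and none was past the rule without the barcodes that held other cells' transcripts.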

How the data were processed

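RNA of single cells was measured in 2 droplet libraries, 1 per nail. The values deposited are whole UMI counts of each gene in each barcode, without normalization; per the file headers they come from Cell Ranger 5.0.0 (Mg) and 7.0.1 (Mg-TAGelMA), and the submitters' processing notes name STAR and mm10. Whether reads in introns were counted, and the annotation used, are not given in the sources used here. The deposited gene and barcode lists were used as names, and 32235 of 32285 gene identifiers matched the reference annotation (GRCm38) from which intron lengths were taken.

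Members and gene lists were chosen with earlier results of these data known. Besides the CD8 gate given above, CD4 T cells took at least 2 CD3 UMIs, at least 1 of Cd4 and 0 of the CD8 genes; NK cells at least 2 of Ncr1, Klrb1c and Klre1 and at most 1 of CD3, both with the same B cell and neutrophil limits; and B cells at least 4 of Cd79a and Cd79b, at least 1 of a further pair of B cell markers that includes Ms4a1, and 0 of CD3. Doublets called by scrublet (scanpy 1.11.5; 197 and 297 barcodes, 2 and 7 of them members) stayed in and were left out as an alternative. Counts were summed per class and library. Between libraries, CPM ratios carry exact conditional binomial intervals (scipy 1.17.1), with a count of 0 set to 3 per library. Between classes, edgeR 4.0.16 (R 4.3.3) fitted 8 sums of 4 classes with class and library terms, leaving 3 residual degrees of freedom; n is the 2 libraries, and how many animals stand behind each is not stated. DESeq2 1.42.0 was an alternative. The methods were tested on simulated sums of counts. Those sums were drawn without UMIs bunched in single cells, so they do not cover genes with most of their UMIs in 1 cell. Genes were named by level, by size and by rank (10 each way) within fixed rules; list members that missed a threshold, the genes of the Ccl5 subsets and the promoters shown were picked after their values were seen. Intervals cover counting error only, since cells of 1 library are not replicates.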

Additional observations from a re-analysis of the deposited data

Results flagged for a closer look

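Ccr2, a chemokine receptor of monocytes and some lymphocytes, took opposite directions in 2 classes of the same libraries, and that is why it is listed here. In CD8 T cells its Mg-TAGelMA level was 2.77 times the Mg level (31.7 and 87.9 CPM, exact interval 2.0 to 3.88), and in NK cells it was 0.235 times (863 and 203 CPM). The difference between the classes was not tested, since each class has 1 library per nail. Beside it stand the monocyte transcripts of the members: without the barcodes that held other cells' transcripts, the ratio in CD8 T cells was 0.702, which is below 1, and without the cell with the most Ccr2 UMIs in each library it was 2.54 and no longer past the size rule.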

How the results depend on the processing

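No paired analysis was possible because the labels carry no replicate numbers and each nail has 1 library; this holds for the comparison of nails, while the class comparisons carry a library term. Leaving out a library leaves no residual degrees of freedom for the class comparisons, so each library's own values stand beside the fit. The share ratio of 0.626 stayed between 0.578 and 0.627 with stricter quality limits, other gates, doublets out or other cells' transcripts out. It was 0.393 at equal depth with the gate applied anew, and 0.916 against CD3-positive barcodes. The CD8 to CD4 ratio stayed between 1.0 and 1.07. At equal depth 13.9% of Mg and 34.5% of Mg-TAGelMA members, gated before the reduction, held at least 2 Ccl5 UMIs. Genes higher and lower in Mg-TAGelMA members (752 and 63) numbered 351 and 20 at equal depth, 124 and 14 among short-intron genes, 475 and 35 with a minimum of 100 CPM, and 1419 and 121 with none; the lower ones numbered 119 with TMM, 125 with DESeq2 size factors and 224 with a bound of 1.5-fold. The median over genes moved by -0.21 (TMM), -0.22 (DESeq2), -0.11 (without Gm42418) and 0.36 (short-intron scale) on the log2 scale. Ccr2 reversed to log2 -0.51 without other cells' transcripts; the cause was not tested. Of the named genes' other ratios between libraries under the alternatives, 1004 lay within the interval first given and 215 outside it. Genes higher and lower in CD8 than in CD4 T cells (3 and 20) numbered 40 and 62 with DESeq2, 110 and 154 without a count filter, 14 and 38 without doublets, 110 and 89 with the 2 classes alone and, in alternatives chosen after seeing the data, 58 and 52 without other cells' transcripts and 6 and 18 without each gene's top cell. Against NK cells (209 and 231) they numbered 374 and 433 without a filter. The number of members, 142 in the smaller library, limits what can be detected for genes of few UMIs.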
